A study of Mus musculus with 6 samples.

Results

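The genes described here encode the machinery that docks, primes and fuses secretory vesicles: SNAREs, the proteins that hold or release them, synaptotagmins and related calcium sensors, and the priming factors. They were taken by name from the deposited table as the syntaxins, SNAP25-type SNAREs and VAMPs, the syntaxin-binding proteins, NSF with its SNAP adaptors, the synaptotagmins, DOC2 proteins and complexins, the RIM, UNC13 and CADPS proteins, and the synaptotagmin-like proteins with Exph5. This gave 78 of 48321 gene names. Expression was measured by RNA sequencing of islets isolated from C57BL6 mice labelled wild type. One group of 3 samples came from mice on a high-fat diet (60 percent of calories from fat for 4 months, started at 3 months of age). The other group of 3 samples came from mice on normal chow, whose age and feeding time the labels do not give. Samples are numbered within a diet in deposit order. For 48321 of 48321 names chow replicate 2 held the average of the other two chow samples, so it is not a library of its own and was left out, which leaves 3 high-fat and 2 chow libraries.

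In a beta-cell, insulin granules fuse with the plasma membrane when a granule SNARE (a VAMP) zips together with a syntaxin and a SNAP25-type SNARE of the plasma membrane. Syntaxin-binding proteins hold syntaxins, UNC13, RIM and CADPS proteins prime the granule, complexins clamp the part-zipped bundle, and synaptotagmins and DOC2 proteins couple fusion to calcium. NSF and its adaptors take the spent SNARE bundle apart for reuse. Other syntaxins, VAMPs and SNAP25-type SNAREs serve traffic through the Golgi, endosomes, lysosomes and autophagosomes in every cell.

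The values are CPM, the reads of a gene scaled by the reads of its library, a unit read from the values themselves since no label states it. The libraries did not share a common sum over all genes. It was 963615, 832416 and 879301 CPM in high-fat replicates 1, 2 and 3, and 841705 and 674482 CPM in chow replicates 1 and 3. Steps between the lowest values put the depth at 23500000 to 35100000 reads for the high-fat libraries and 18800000 and 24700000 reads for the chow libraries. At these depths 3 reads, taken here as the floor, were worth 0.0856 to 0.128 CPM in the high-fat libraries and 0.16 and 0.122 CPM in the chow libraries, which covers counting error only. The libraries differed between diets in more than the diet. Structured RNAs without a poly(A) tail separated them, with Rn7sk at 3192 to 3935 CPM in high-fat and at 6.27 and 13.3 CPM in chow libraries, and sample names began with RA for high-fat and BS for chow. Library type and diet therefore cannot be told apart for any gene below. Acinar markers, from the enzyme-secreting cells around islets, held 11.2%, 1.51% and 4.47% of the summed CPM in high-fat replicates 1, 2 and 3, and 24.8% and 9.71% in chow replicates 1 and 3. The ranges overlap, and with 3 against 2 libraries an exact permutation test cannot go below 0.2, so no test is given. The difference of the means was -11.6 percentage points, -4 without chow replicate 1 and -19.1 without chow replicate 3. The 2 chow libraries also differed from each other, the summed alpha-cell markers standing at between 11553 and 13258 CPM on the high-fat diet, and 10665 and 2553 CPM in chow replicates 1 and 3. Ins1 and Ins2, which mark beta-cells, were at 28993 to 32305 and 41203 to 45461 CPM with high-fat feeding, and at 17487 and 23811, and 28777 and 41053 CPM, on chow. In islet RNA, fewer cells of a type and less RNA per cell cannot be told apart.

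Of the 78 genes, 71 reached a mean of 0.5 CPM over the 5 libraries and were tested. Members at an adjusted p below 0.05 numbered 13 higher and 10 lower in high-fat islets (limma on log2(CPM + 1), Benjamini-Hochberg over all 16939 genes tested). That is 18.3% and 14.1% of the tested members, against 14.9% higher and 8.78% lower among all genes tested, and the median log2 fold change was -0.06 over the members and 0.05 over all genes. The genes that rose included the priming factors Unc13a, Unc13b and Rims2, the RAB27 effectors Exph5 and Sytl5, and the synaptotagmins Syt13, Syt5 and Syt3. Those that fell included the complexins Cplx1 and Cplx3, the calcium sensors Doc2b and Syt1, the synaptotagmin Syt17, and Snap25. Some endocrine markers moved with the genes that rose. Of 10 beta-cell markers 4 were higher and 0 lower, with a median of 0.47 over the 10. The 4 were the transcription factors Mafa (0.50, limma adjusted p = 0.00764) and Pdx1 (0.59, 0.0429), the peptide Ucn3 (0.51, 0.0359) and the enzyme G6pc2 (0.98, 0.0397). The others did not pass, among them Slc2a2 at -0.24. The 4 are 40% of the list, beside 14.9% higher among all genes tested. With acinar and insulin genes removed before scaling, 0 of the 10 were higher and 1 lower, beside 4.66% and 35.4% of all genes. Of 5 alpha-cell markers 1 was higher, Ttr (1.81, limma adjusted p = 0.0157), and the others did not pass. Of 3 delta-cell markers 1 was higher, Rbp4 (3.11, limma adjusted p = 3.42e-05), but their median was -0.18. The pancreatic polypeptide gene Ppy was at -0.60 and did not pass. The beta-cell markers held 9.12%, 11.5% and 9.97% of the summed CPM in high-fat libraries and 6.85% and 11.9% in chow libraries, and their part in the increases was not tested. The core granule VAMP, Vamp2, and the most abundant complexin, Cplx2, did not pass the threshold.

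**Figure D1:**
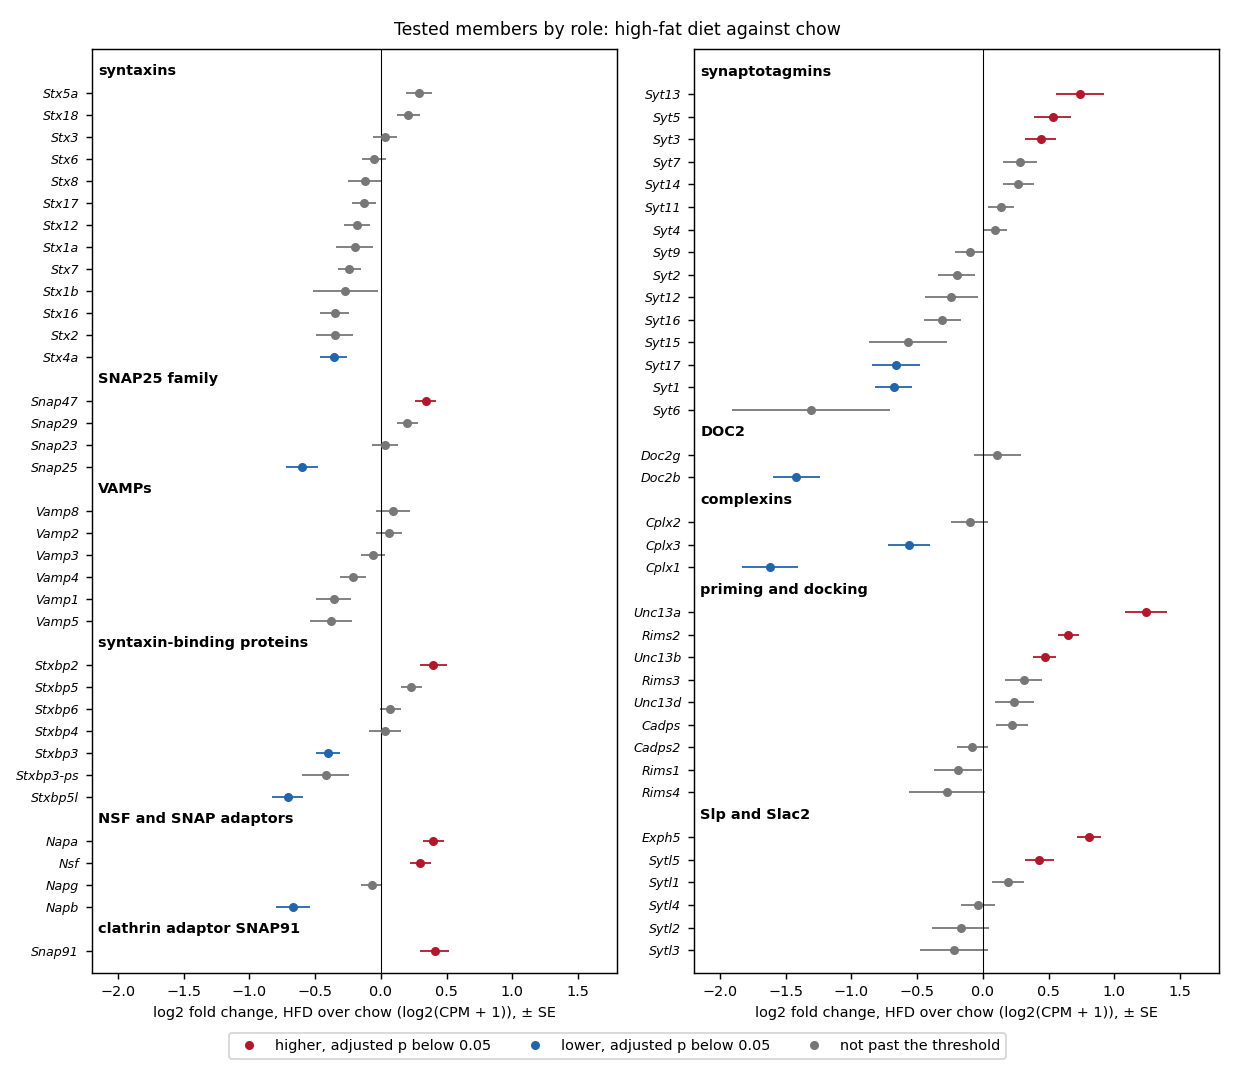
Log2 fold change (high-fat diet over chow, on the log2(CPM + 1) scale) of 70 of the 71 tested members, by role, with the standard error as bars; red and blue mark members past an adjusted p of 0.05. The members past the threshold run from Unc13a at 1.24 to Cplx1 at -1.62, and the syntaxins and VAMPs hold 1 of them, Stx4a.

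How many members were called depended on the scaling of the libraries. Median-ratio scaling gave 8 higher and 11 lower of the 71 tested members, beside 12.5% and 11.2% of all genes. A library size of protein-coding genes without acinar, insulin and histone genes gave 3 higher and 10 lower, beside 8.47% and 9.06%. When acinar and insulin genes were removed before scaling, the median of all genes moved by -0.37. Then 2 members were higher and 35 lower, beside 4.66% and 35.4% of all genes. The protein-coding size, which also lacks acinar and insulin genes, moved the median by -0.06. The sum left after removal was 742064 to 784631 CPM in high-fat and 586492 and 544115 CPM in chow libraries. The protein-coding sum was 507492 to 546173 CPM, and 519769 and 477981 CPM. The first sum still held RNAs such as Gm26917 (35343 to 40815 CPM in high-fat, 80.8 and 91.4 CPM in chow). Their part in the shift was not tested. Under all 17 alternatives, which include leaving out each library, 6 of the 23 called members kept their call: Unc13a and Exph5 higher, and Cplx1, Doc2b, Napb and Stxbp5l lower. Rims2 and Snap25 kept theirs under 16 of 17. Absence of overlap between the diets was common: the 3 high-fat libraries lay above both chow libraries in 22 tested members (31%, against 32.8% of all genes tested) and below both in 22 (31%, against 22.5%), and 21 of these 44 members were not called. In 19 of the 23 the direction was the same under every alternative, the exceptions being Napa, Nsf, Snap47 and Stxbp2, which turned to -0.04, -0.13, -0.09 and -0.02 with acinar and insulin genes removed before scaling. Relative to the median of all genes in that setting these 4 stood at 0.28, 0.19, 0.23 and 0.29.

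**Figure D2:**
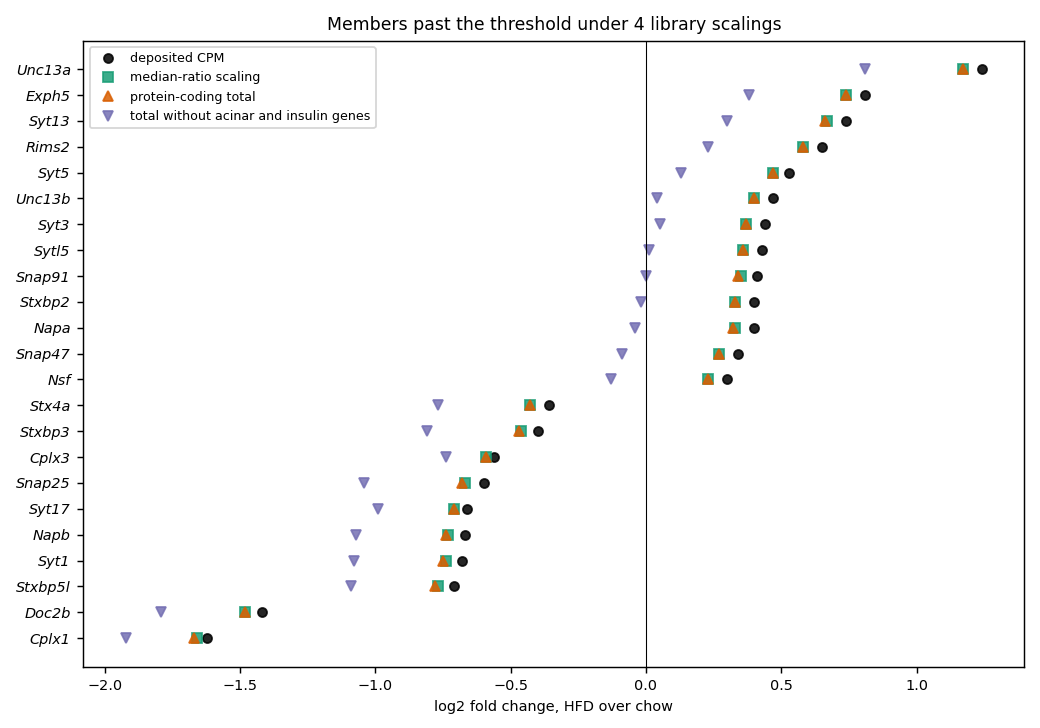
Log2 fold change (high-fat diet over chow) of the 23 members past the threshold, with the deposited CPM and under 3 other library scalings. Removing acinar and insulin genes before scaling shifts every point to the left, so that Unc13a stands at 0.81 and Snap91 at 0.00.

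Priming factors held the largest increase. UNC13 proteins (Munc13) open syntaxin so that it can enter a SNARE bundle. Unc13a was at 83.3, 95.2 and 104 CPM in the high-fat libraries, against 32.9 and 46.3 CPM in the chow libraries. Every high-fat library was above both chow libraries, by a log2 fold change of 1.24 ± 0.16 (SE; limma adjusted p = 0.00303). Unc13b, the widely expressed relative, was at 43.6, 48.8 and 49.8 CPM on the high-fat diet, against 32.4 and 35.5 CPM on chow (0.47 ± 0.09, limma adjusted p = 0.0149), again without overlap. Within a library the ratio of Unc13a to Unc13b, which no library scaling can change, was 1.91, 1.95 and 2.09 on the high-fat diet and 1.01 and 1.31 on chow. Unc13d (Munc13-4, of blood cells and other secretory cells) averaged 1.01 ± 0.12 CPM on the high-fat diet and 0.707 ± 0.0979 CPM on chow, and did not pass the threshold (limma adjusted p = 0.294). Unc13c was not tested, at 0.338 to 0.468 CPM in high-fat and 0.107 and 0.162 CPM in chow libraries, where chow replicate 1 lay under the floor.

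RIM proteins tether granules and calcium channels at the release site. Rims2, the large RIM of islets, stood at 50.5, 50.4 and 50.8 CPM on the high-fat diet, against 30.6 and 33.1 CPM on chow. The diets did not overlap, and the 3 high-fat values lay within 1 CPM of each other (0.65 ± 0.08, limma adjusted p = 0.00229). It lost its call with acinar and insulin genes removed before scaling (0.23, limma adjusted p = 0.139). Rims3, a short RIM without the domain that binds RAB3 and the most abundant of them per kb of exon, was at 185, 174 and 221 CPM on the high-fat diet, against 140.0 and 172 CPM on chow, and missed the threshold (0.31 ± 0.14, limma adjusted p = 0.156). Rims1 and Rims4 averaged 0.665 and 1.82 CPM in high-fat and 0.886 and 2.31 CPM in chow libraries, with overlap. Cadps (CAPS1), which primes dense-core granules, was at 136, 146 and 149 CPM on the high-fat diet and at 109 and 139 CPM on chow (0.22 ± 0.12, limma adjusted p = 0.222). Its relative Cadps2 averaged 15.9 ± 1.71 CPM and 16.8 ± 1.65 CPM (high-fat n = 3, chow n = 2), with a log2 fold change of -0.08 ± 0.12 (limma adjusted p = 0.664). Of the 9 tested priming and docking genes, 3 rose and 0 fell (limma; 0 were lower at an unadjusted p under 0.05), with a median of 0.24 beside 0.05 over all genes. The 3 are 33.3%, beside 14.9% higher and 8.78% lower among all genes tested. With acinar and insulin genes removed before scaling, 1 was higher and 1 lower, beside 4.66% and 35.4% of all genes. The lower one was Cadps2 (-0.49, limma adjusted p = 0.033). Unc13b missed the threshold without high-fat replicate 2 or 3 (limma adjusted p = 0.0611 and 0.0577) and with no filter (0.0544). It also missed it with the mean level of acinar markers as a covariate (0.0727) and with the protein-coding library size (0.0579). With acinar and insulin genes removed before scaling, Unc13b was at 0.04 (limma adjusted p = 0.81). Without chow replicate 1 Unc13b was at 0.41, and without chow replicate 3 Cadps was at 0.40.

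**Figure D3:**
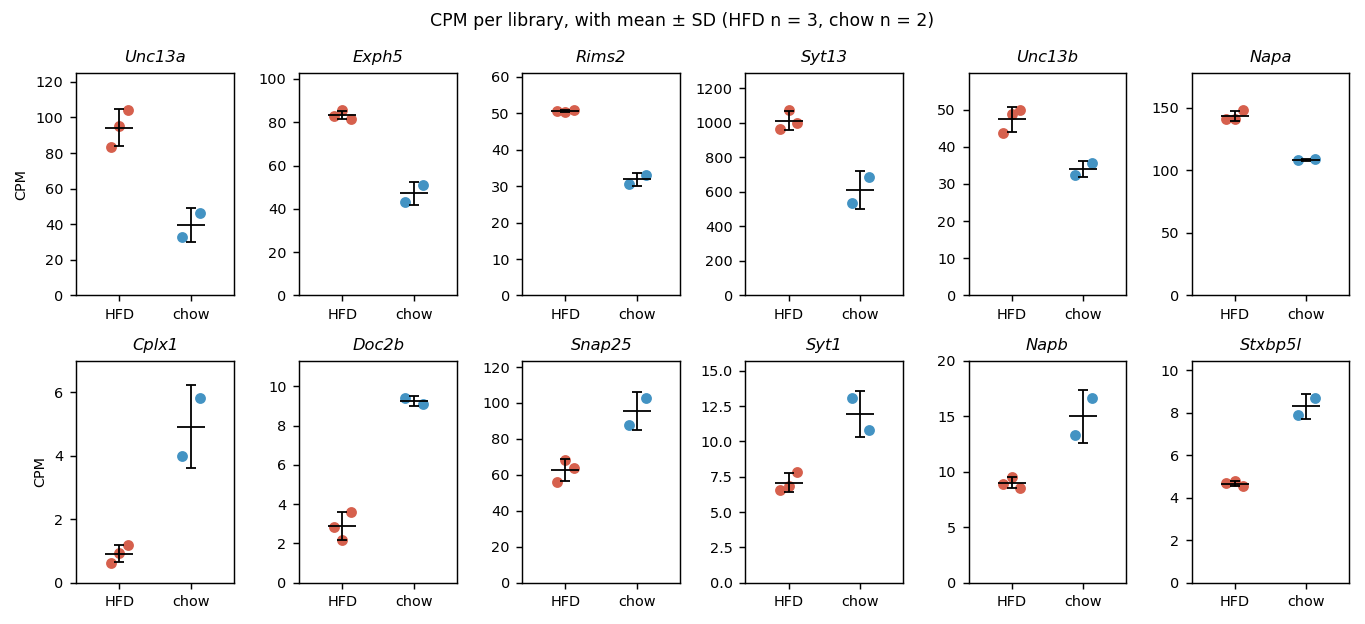
CPM of 12 members in each library (points), with the mean and SD as bars (high-fat diet n = 3, chow n = 2); every axis starts at 0. The 12 were picked from the members past the threshold, and their points run from Unc13a at 83.3 CPM or more against at most 46.3 CPM, to Cplx1 at 1.19 CPM or less against at least 3.99 CPM.

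RAB27 effectors link granules to the cell cortex. Exph5 (Slac2-b) was at 82.9, 85.5 and 81.6 CPM in high-fat libraries, against 43.3 and 50.9 CPM in chow libraries. The lowest high-fat value was well above the highest chow value, with a log2 fold change of 0.81 ± 0.09 (limma adjusted p = 0.00196). Sytl4 (granuphilin), which docks insulin granules, was the most abundant of the group per kb of exon, and was at 147, 121 and 154 CPM on the high-fat diet and 136 and 152 CPM on chow. Its diets overlapped, and its log2 fold change was -0.04 ± 0.13 (limma adjusted p = 0.844). The ratio of Exph5 to Sytl4 within a library was 0.563, 0.708 and 0.53 on the high-fat diet and 0.319 and 0.335 on chow. Sytl5 averaged 26.7 ± 2.02 CPM on the high-fat diet and 19.6 ± 2.54 CPM on chow (0.43 ± 0.11, limma adjusted p = 0.0343). Its call was lost without chow replicate 1 (limma adjusted p = 0.137) and without high-fat replicates 1, 2 and 3 (0.0602, 0.0974 and 0.108). Sytl1, Sytl2 and Sytl3 averaged 15.6, 2.31 and 1.24 CPM in high-fat and 13.5, 2.74 and 1.54 CPM in chow libraries, all with overlap.

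Synaptotagmins carry tandem C2 domains, which in some members bind calcium and in others do not. Syt13, one that lacks the calcium-binding residues and the most abundant member per kb of exon, was at 962, 1072 and 999 CPM in high-fat libraries, against 533 and 687 CPM in chow libraries. High-fat values were above chow in every library, by 0.74 ± 0.18 (limma adjusted p = 0.0262). The call was lost without chow replicate 1 (limma adjusted p = 0.0755), without high-fat replicates 1, 2 and 3 (0.0724, 0.0916 and 0.0859), and once the acinar score entered the fit (0.0532). Divided by exon length, so that genes can be set side by side, Syt13 made up 71.0% to 72.2% of the summed CPM per kb of the 17 synaptotagmins in high-fat libraries, and 59.9% and 64.4% in chow libraries. The high-affinity calcium sensor Syt7, which acts in insulin secretion, came next at 42.7 ± 1.64 CPM per kb on the high-fat diet and 35.4 ± 5.46 CPM per kb on chow. In CPM it stood at 305, 324 and 328 against 236 and 294 (0.28 ± 0.13, limma adjusted p = 0.15), and passed without chow replicate 3 (limma adjusted p = 0.0295). The ratio of Syt13 to Syt7 was 3.15, 3.31 and 3.04 on the high-fat diet and 2.26 and 2.34 on chow. Syt4, which tunes calcium sensitivity in maturing mouse beta-cells, averaged 111 ± 6.84 CPM and 105 ± 2.93 CPM (high-fat n = 3, chow n = 2), with 0.09 ± 0.09 (limma adjusted p = 0.497).

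Syt5 and Syt3, both calcium-binding, were higher on the high-fat diet. Syt5 was at 14.1, 17.3 and 17 CPM, against 12.2 and 9.56 CPM on chow (0.53 ± 0.14, limma adjusted p = 0.0356), and Syt3 averaged 8.51 ± 0.521 CPM against 6.03 ± 0.34 CPM (0.44 ± 0.12, limma adjusted p = 0.0409). Leaving out any 1 library ended the call of Syt3 (limma adjusted p of 0.0756 to 0.128), and that of Syt5 went without chow replicate 3 (0.113) or high-fat replicate 2 or 3 (0.112, 0.109). Syt1, the fast calcium sensor of neurons, fell to 6.58, 6.81 and 7.84 CPM in high-fat libraries, against 13.1 and 10.8 CPM in chow libraries (-0.68 ± 0.14, limma adjusted p = 0.0155). Its call went without chow replicate 1 (limma adjusted p = 0.078) or either of high-fat replicates 1 and 2 (0.0506, 0.0567). Syt17 fell to 1.56, 2.08 and 2.64 CPM, against 3.88 and 3.77 CPM on chow (-0.66 ± 0.18, limma adjusted p = 0.0427), and did not pass without chow replicates 1 and 3 or high-fat replicates 1 and 2 (0.148, 0.0973, 0.0965 and 0.107). Syt6 varied most, at 29.8, 16.6 and 4.94 CPM in high-fat replicates 1, 2 and 3 and at 38.8 and 32.6 CPM in chow. The high-fat values were spread widely, all below both chow values, and the difference of -1.31 ± 0.60 did not pass (limma adjusted p = 0.155). Syt9, a calcium sensor found in beta-cells, averaged 14.3 ± 1.16 CPM and 15.4 ± 1.2 CPM (high-fat n = 3, chow n = 2; limma adjusted p = 0.546), and Syt11 40.6 ± 4 CPM and 36.6 ± 1.51 CPM (limma adjusted p = 0.344). Syt15 was at 4.73 CPM in chow replicate 1 and between 1.35 and 2.03 CPM in the other 4 libraries. Of 15 tested synaptotagmins 3 rose and 2 fell. Syt8 and Syt10 were not tested, with 4 and 3 of the 5 libraries at or under the floor.

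**Figure D4:**
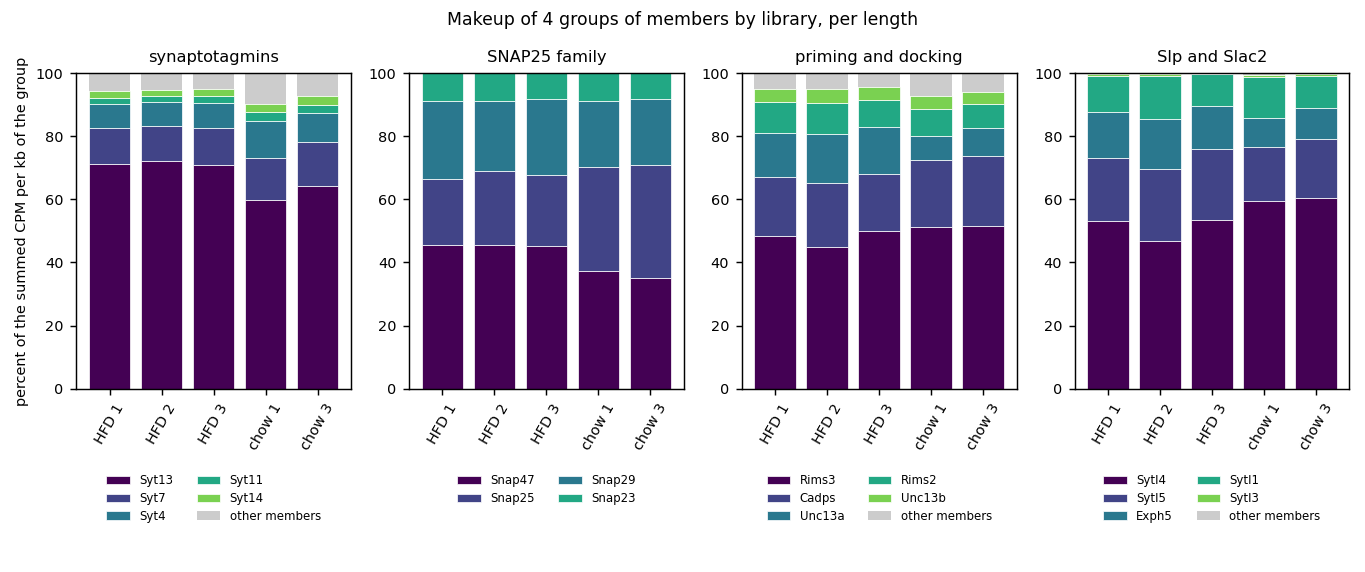
Share of the summed CPM per kb of exon that each leading member holds, in the synaptotagmins, the SNAP25-type SNAREs, the priming and docking genes, and the synaptotagmin-like genes with Exph5, by library. Syt13 holds 71.0% to 72.2% of its group in high-fat and 59.9% and 64.4% in chow libraries, and Snap25 20.9% to 23.5% against 32.9% and 36.0%.

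Among the called members, a complexin and a DOC2 protein had the largest decreases. Complexins bind the assembled SNARE bundle and hold it until calcium arrives. Cplx1 was at 0.634, 0.938 and 1.19 CPM in high-fat libraries, against 3.99 and 5.84 CPM in chow libraries. No high-fat library came near a chow library, and the log2 fold change was -1.62 ± 0.21 (limma adjusted p = 0.00305). Cplx2, the main complexin here, was at 561, 603 and 617 CPM on the high-fat diet and 591 and 686 CPM on chow (-0.10 ± 0.14, limma adjusted p = 0.629). It made up 99.4% to 99.7% of the summed CPM per kb of the complexins in high-fat libraries and 98.2% and 97.9% in chow libraries. The summed level of all 4 complexins was 114, 123 and 126 CPM per kb on the high-fat diet and 122 and 142 CPM per kb on chow, which overlap. Cplx3, known from retinal ribbon synapses, was at 0.253, 0.399 and 0.468 CPM against 1.06 and 0.972 CPM (-0.56 ± 0.16, limma adjusted p = 0.0411), a call that leaving out any 1 library ended (limma adjusted p of 0.0818 to 0.154). Cplx4 was at or under the floor in 4 of 5 libraries.

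DOC2 proteins are soluble calcium sensors with tandem C2 domains, and Doc2b binds syntaxin 4 in beta-cells. Doc2b fell to 2.85, 2.18 and 3.6 CPM in high-fat libraries, against 9.43 and 9.08 CPM in chow libraries. The diets did not overlap (-1.42 ± 0.18, limma adjusted p = 0.00304). Some reads may belong to Gm12339, whose exons overlap those of Doc2b by 241 bases on the other strand, since the sources used here do not say whether counting used strand. Doc2g averaged 0.79 ± 0.252 CPM and 0.653 ± 0.108 CPM (high-fat n = 3, chow n = 2; limma adjusted p = 0.696), but shares 58.9% of its 31-base words with other genes, and Doc2a was at 0.087 to 0.35 CPM in all 5 libraries.

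SNAREs of the plasma membrane were led by the SNAP25-type genes. Snap25, which supplies a pair of helices to the fusion bundle in neurons and beta-cells, fell to 55.8, 68.2 and 63.9 CPM in high-fat libraries, against 87.9 and 103 CPM in chow libraries. The diets did not overlap (-0.60 ± 0.12, limma adjusted p = 0.0131), and the call was lost only with no filter on low genes among the 17 alternatives (limma adjusted p = 0.0607). Its ratio to Vamp2, the granule SNARE it pairs with, was 0.521, 0.596 and 0.547 on the high-fat diet and 0.888 and 0.872 on chow. The ubiquitous Snap23 averaged 15.3 ± 0.843 CPM and 15 ± 0.0387 CPM (high-fat n = 3, chow n = 2), with 0.03 ± 0.10 (limma adjusted p = 0.857). Snap47, which lacks the membrane anchor of Snap25, rose to 47.5, 51.7 and 50.2 CPM, against 39 and 39.3 CPM on chow (0.34 ± 0.08, limma adjusted p = 0.0236), and missed the threshold without chow replicate 1 and high-fat replicates 1, 2 and 3 (0.0633, 0.0533, 0.0899 and 0.0804). Snap29, of autophagosome and endosome fusion, averaged 33.7 and 29.2 CPM (limma adjusted p = 0.119). Per kb of exon the summed level of the 4 genes was 39.4, 42.8 and 41.9 CPM in high-fat and 39.3 and 42.3 CPM in chow libraries. Snap25 held 20.9% to 23.5% of that sum on the high-fat diet and 32.9% and 36.0% on chow.

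Of the 13 tested syntaxins 0 rose and 1 fell (limma; 2 higher, Stx5a and Stx18, had an unadjusted p under 0.05, as did 3 lower ones that were not called, Stx16, Stx2 and Stx7). Stx4a, syntaxin 4 of the plasma membrane, was at 10.9 CPM in each of the 3 high-fat libraries, against 14 and 14.5 CPM in chow libraries (-0.36 ± 0.10, limma adjusted p = 0.0364), and leaving out any 1 library ended the call (limma adjusted p of 0.0859 to 0.102). Stx1a, the syntaxin of regulated exocytosis, was low at 4.35, 3.95 and 4.22 CPM on the high-fat diet and 4.57 and 5.31 CPM on chow (-0.20 ± 0.14, limma adjusted p = 0.33). Stx3 averaged 25.4 ± 1.25 CPM and 24.9 ± 1.58 CPM (high-fat n = 3, chow n = 2; limma adjusted p = 0.851). The most abundant syntaxins per kb were the endosomal Stx12 and Stx7, at 12.2 and 11 CPM per kb on the high-fat diet and 13.9 and 12.9 CPM per kb on chow, followed by the Golgi syntaxin Stx5a at 9.24 and 7.55 CPM per kb. Without chow replicate 3, Stx16 of the trans-Golgi passed as lower (-0.51, limma adjusted p = 0.0125) and Stx5a as higher (0.38, limma adjusted p = 0.037). The median over the tested syntaxins was -0.18. With acinar and insulin genes removed before scaling, 10 of the 13 were called lower, beside 35.4% of all genes. Stx11 and Stx19 were not tested.

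None of the 6 VAMPs passed the threshold (limma; 2 had an unadjusted p under 0.05, Vamp1 and Vamp5, both lower), although Vamp4 passed as lower without chow replicate 3 (limma adjusted p = 0.0481). Vamp2 was at 107, 114 and 117 CPM on the high-fat diet and 99 and 119 CPM on chow (0.06 ± 0.10, limma adjusted p = 0.716), Vamp3 averaged 31.6 ± 1.18 CPM and 33.1 ± 2.56 CPM (high-fat n = 3, chow n = 2; limma adjusted p = 0.629), and Vamp8, of lysosomal and exocrine granule fusion, 27.4 ± 0.841 CPM and 25.9 ± 5.18 CPM (limma adjusted p = 0.62). Vamp8 stood at 27.4, 26.6 and 28.3 CPM on the high-fat diet and 29.6 and 22.2 CPM on chow, so that the chow libraries enclosed the high-fat ones. The ratio of Vamp2 to Vamp3 was 3.27, 3.63 and 3.84 on the high-fat diet and 3.17 and 3.4 on chow, which overlap. Per kb the summed VAMP level was 60.3 to 62.8 CPM in high-fat and 61.8 and 63.4 CPM in chow libraries.

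Syntaxin-binding proteins moved in both directions, with 1 of 8 higher and 2 lower. Stxbp2 (Munc18-2) rose to 34.7, 38.3 and 32.2 CPM, against 27.5 and 25.1 CPM on chow (0.40 ± 0.10, limma adjusted p = 0.031), and Stxbp3 (Munc18c), the partner of syntaxin 4, fell to 12.9, 13.5 and 13.4 CPM, against 18.5 and 17.1 CPM (-0.40 ± 0.09, limma adjusted p = 0.0255). Leaving out any 1 library ended the call of Stxbp2 (limma adjusted p of 0.0504 to 0.0979), and leaving out any but chow replicate 3 that of Stxbp3 (0.0751 to 0.101). Stxbp3 shares 11.1% of its 31-base words with other genes, mainly its pseudogene Stxbp3-ps, which averaged 1.49 CPM on the high-fat diet and 2.3 CPM on chow and whose reads may be split with it. Stxbp5l (tomosyn-2), which blocks SNARE assembly by occupying the place of a VAMP, fell to 4.68, 4.79 and 4.53 CPM, against 7.88 and 8.71 CPM on chow. High-fat and chow values were far apart compared with their spread (-0.71 ± 0.12, limma adjusted p = 0.00946). Its relative Stxbp5 (tomosyn-1) averaged 57.2 ± 2.11 CPM and 48.6 ± 0.654 CPM (high-fat n = 3, chow n = 2), with 0.23 ± 0.08 (limma adjusted p = 0.0684). Stxbp4 and Stxbp6 averaged 13.4 and 33.7 CPM in high-fat and 13.2 and 32.1 CPM in chow libraries.

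The recycling genes split by adaptor. Napa (alpha-SNAP), the main adaptor that brings NSF to a spent bundle, rose to 141, 141 and 148 CPM in high-fat libraries, against 108 and 109 CPM in chow libraries (0.40 ± 0.08, limma adjusted p = 0.0149). Napb (beta-SNAP), its brain-enriched relative, fell to 8.94, 9.57 and 8.57 CPM, against 13.3 and 16.7 CPM on chow (-0.67 ± 0.13, limma adjusted p = 0.013). The ratio of Napa to Napb was 15.8, 14.8 and 17.2 on the high-fat diet and 8.12 and 6.52 on chow. Nsf, the ATPase itself, rose to 62.7, 67.4 and 61.7 CPM, against 49.3 and 54 CPM (0.30 ± 0.08, limma adjusted p = 0.0414). Napa lost its call without any 1 of high-fat replicates 1 to 3 (limma adjusted p = 0.0532, 0.0586 and 0.0631), and Nsf without these (0.0997, 0.138 and 0.0917) and without chow replicate 1 (0.137). Napg averaged 23.5 and 24.8 CPM (limma adjusted p = 0.552). Snap91 (AP180), which matched the naming rule but is a clathrin adaptor and no SNARE, averaged 18.1 ± 1.71 CPM on the high-fat diet and 13.3 ± 0.463 CPM on chow (0.41 ± 0.11, limma adjusted p = 0.0369), and failed without chow replicates 1 and 3 and high-fat replicates 2 and 3 (limma adjusted p of 0.0874 to 0.12).

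**Figure D5:**
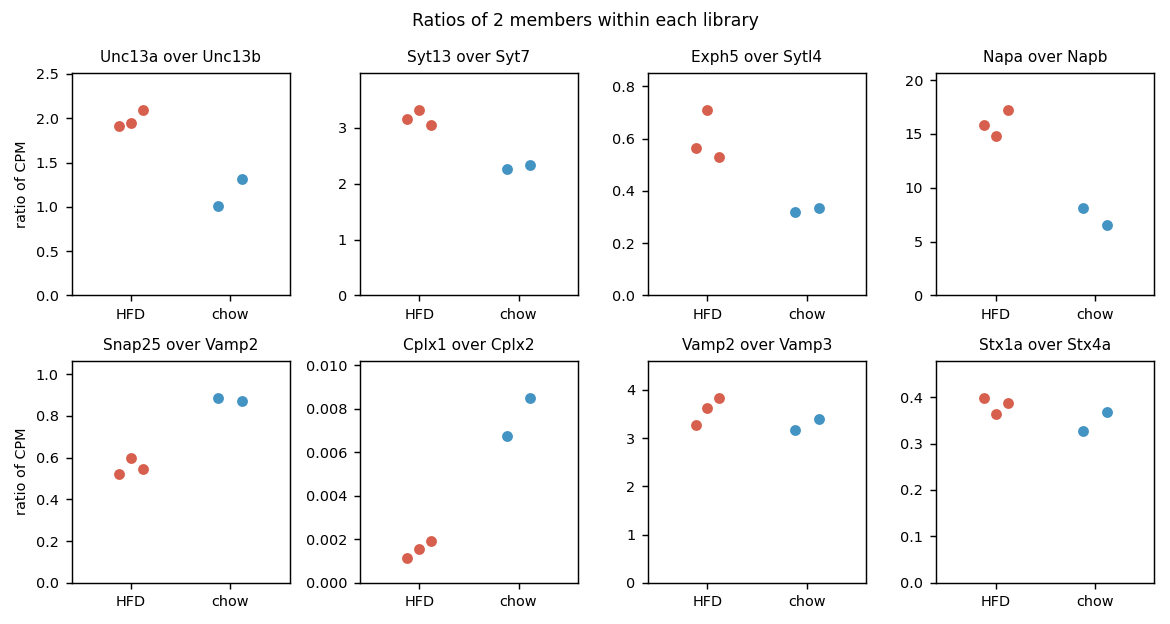
Ratios of the CPM of 2 members within each library, which no library scaling can change; the pairs were chosen after their values were seen. The ratios of Unc13a to Unc13b, Syt13 to Syt7, Exph5 to Sytl4 and Napa to Napb are higher in all 3 high-fat libraries, those of Snap25 to Vamp2 and Cplx1 to Cplx2 lower, and those of Vamp2 to Vamp3 and Stx1a to Stx4a overlap.

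Among the genes that fell and those that rose are genes well known from neurons, such as Snap25 and Syt1 (lower) and Unc13a, Rims2 and Snap91 (higher), while most markers of nerves fell. Of 14 markers of neurons and Schwann cells 8 fell and 1 rose (57.1% and 7.14%, beside 8.78% and 14.9% of all genes tested). Their summed level was 213 to 229 CPM in high-fat and 261 and 306 CPM in chow libraries. Most of that sum was Ret, at 139, 153 and 141 CPM in high-fat and 129.6 and 154 CPM in chow libraries. None of the 14 markers was at or under the floor in any library. Vip, a neuropeptide, was at 1.6, 1.6 and 2.17 CPM on the high-fat diet and 38.4 and 39.9 CPM on chow (-3.85 ± 0.14, limma adjusted p = 6.25e-06), and Prph, a neurofilament relative of peripheral neurons, at 2.59, 1.79 and 3.02 CPM against 9.39 and 13 CPM. Tubb3 and Ret did not pass the threshold (limma adjusted p = 0.901 and 0.862). Fibroblast and stellate markers fell in 6 of 9. The part of nerve or stromal RNA in the decreases of Cplx1, Doc2b, Snap25, Syt1, Napb and Stxbp5l was not tested. With the mean level of acinar markers as a covariate, 3 members were higher (Unc13a, Exph5 and Rims2) and 5 lower (Cplx1, Doc2b, Snap25, Napb and Stxbp5l). That stands beside 6.78% higher and 4.39% lower among all genes, and 71 members were tested.

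Other genes of regulated exocytosis, in 5 lists, gave 14 higher and 7 lower of 68 tested, with a median of 0.11. That is 20.6% and 10.3%, beside the 14.9% and 8.78% of all genes. Of 15 genes of granule cargo and granule membrane 4 rose, among them Pam, which amidates peptides (972, 1211 and 1049 CPM on the high-fat diet, 405 and 438 CPM on chow; 1.35 ± 0.16, limma adjusted p = 0.00241), the granule membrane protein Ptprn (0.67 ± 0.12) and the proprotein convertase inhibitor Pcsk1n (0.69 ± 0.14). Of 11 exocyst and RAL genes 4 rose, led by Exoc8, at 39.3 ± 1.05 CPM on the high-fat diet and 24.1 ± 5.36 CPM on chow (limma adjusted p = 0.0125). Of 14 active zone scaffold genes 2 rose, the adaptor Apba1 (0.59 ± 0.08) and the kinase-like scaffold Cask (0.41 ± 0.08). Of 13 tested RAB3 and RAB27 genes with effectors 2 rose and 4 fell. Rab3d, of exocrine and endocrine granules, averaged 147 ± 5.84 CPM on the high-fat diet and 105 ± 4.19 CPM on chow, whereas Rab3c averaged 8.05 ± 0.794 CPM and 15.3 ± 0.438 CPM (high-fat n = 3, chow n = 2) and Rab3b also fell. Of 15 genes of vesicle proteins and of the endocytosis that follows fusion, taken as 1 list, 2 rose and 3 fell. The vesicle protein Syp was at 235, 249.6 and 240.4 CPM against 128 and 148 CPM (0.81 ± 0.10, limma adjusted p = 0.00269) and the phosphatase Synj1 rose as well, while the neuronal dynamin Dnm1 fell to 5.13, 6.06 and 5.26 CPM, against 10.9 and 13.5 CPM on chow (-1.03 ± 0.14, limma adjusted p = 0.00409). With acinar and insulin genes removed before scaling, these 5 lists together gave 1 higher and 22 lower, beside 4.66% and 35.4% of all genes.

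The 13 members that rose had a median exon length of 4159 bases and a GC content of 52.1%, and the 10 that fell 5272 bases and 49.1%, beside 5094 bases and 49.2% in the 48 tested members that did neither. After removal of trends with length and GC content, 9 of the 13 kept a call as higher and 9 of the 10 as lower. Promoter windows (250 bases before to 50 after an annotated start) were found for 58 of the 78 members, as 69 windows. The GC box GGGCGG, on either strand, was in 43 of the 69 (62.3%), against 35.7% of 32851 windows of all genes, and in 6 of 10 windows of members that rose and 5 of 8 of members that fell. The TATA box TATAAA was in 2 of 69 (2.9%, against 13.6%), the CCAAT box CCAAT in 22 (31.9%, against 37.4%), the cAMP response element TGACGTCA in 2 (2.9%, against 1.79%) and the E-box CACGTG in 11 (15.9%, against 7.15%). The windows of all genes were not filtered by expression or gene type, and the part of this in these differences was not tested.

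The windows below belong to members whose call held under every alternative and which have 1 window in the table, and are shown to set the genes that rose beside those that fell. They are the 250 bases before the annotated start (RefSeq, GRCm38.p6), 5′ to 3′ on the strand of the gene. Capitals mark a GC box or a CCAAT box on either strand. A match describes the letters and not a site, and the start used in islets is not given by these data. Exph5 lies at chr9:53301420-53301669 (plus strand), Unc13a at chr8:71671758-71672007, Cplx1 at chr5:108550028-108550277, Napb at chr2:148732421-148732670 and Stxbp5l at chr16:37384959-37385208 (all minus strand).
Exph5 (rose): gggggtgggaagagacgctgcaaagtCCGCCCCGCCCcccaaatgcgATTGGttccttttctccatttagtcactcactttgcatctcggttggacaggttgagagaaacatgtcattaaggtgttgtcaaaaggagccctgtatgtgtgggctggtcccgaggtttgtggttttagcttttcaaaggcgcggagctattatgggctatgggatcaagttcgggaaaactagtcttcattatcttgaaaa
Unc13a (rose): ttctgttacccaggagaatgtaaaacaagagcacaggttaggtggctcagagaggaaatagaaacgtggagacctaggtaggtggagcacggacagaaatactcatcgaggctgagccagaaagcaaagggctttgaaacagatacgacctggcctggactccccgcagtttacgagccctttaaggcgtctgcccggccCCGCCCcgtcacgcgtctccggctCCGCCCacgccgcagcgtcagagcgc
Cplx1 (fell): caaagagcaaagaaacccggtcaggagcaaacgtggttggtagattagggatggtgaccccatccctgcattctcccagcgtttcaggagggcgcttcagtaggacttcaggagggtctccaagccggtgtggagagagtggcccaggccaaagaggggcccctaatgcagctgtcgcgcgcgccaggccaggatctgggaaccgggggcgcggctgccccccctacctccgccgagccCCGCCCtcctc
Napb (fell): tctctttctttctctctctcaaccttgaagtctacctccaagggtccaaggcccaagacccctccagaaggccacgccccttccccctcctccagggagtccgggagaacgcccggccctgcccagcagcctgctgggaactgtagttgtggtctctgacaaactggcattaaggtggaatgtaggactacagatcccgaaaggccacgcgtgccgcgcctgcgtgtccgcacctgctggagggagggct
Stxbp5l (fell): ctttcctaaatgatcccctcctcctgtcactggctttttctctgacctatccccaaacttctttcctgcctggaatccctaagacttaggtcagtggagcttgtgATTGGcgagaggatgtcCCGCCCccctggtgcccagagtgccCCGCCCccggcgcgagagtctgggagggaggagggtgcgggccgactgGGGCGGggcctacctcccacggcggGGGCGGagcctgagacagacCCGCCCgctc

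GC content of these windows was 48.8% for Exph5, 58% for Unc13a, 64.8% for Cplx1, 61.2% for Napb and 64.8% for Stxbp5l. GC boxes numbered 2 in Exph5, 2 in Unc13a, 1 in Cplx1, 0 in Napb and 5 in Stxbp5l, and a CCAAT box stood in Exph5 and in Stxbp5l.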

How the data were processed

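RNA was extracted from isolated islets with Trizol, per the labels' protocols. Partek is named in the submitters' processing notes; no aligner, build, counting rule or library kit is given in the sources. Each deposited column starts at 1 and its low values rise in even steps, so the authors' values were taken to be CPM plus 1, and 1 was subtracted. Only 64.5% to 69.9% of values worth up to 20 reads were whole within 0.1 of a read, so no count model was used. No label says that each sample is a separate animal, and p-values then measure only spread among the samples at hand, possibly technical.

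Limma 3.58.1 in R 4.3.3 (trended prior) was fitted to log2(CPM + 1) of 16939 genes averaging 0.5 CPM or more over 3 high-fat and 2 chow libraries, and p-values were adjusted over all of them with a threshold of 0.05. Fold changes on this scale understate those of low genes. The fit was tested on simulated data. Errors are SD for levels and SE for fold changes. Any member could be named, with full statistics for those past the threshold and for 29 core beta-cell exocytosis genes, of which 1 enters the counts and sums but is not reported here, and of each other exocytosis list the 3 called genes with the smallest p, or fewer. Single members outside this rule, the ratios, Rn7sk and the nerve markers named were chosen after their values were seen. Members and lists were chosen with earlier results of these data known. Exon lengths, GC content and shared words are those of GENCODE M21; the authors' annotation may be another. Alternatives were library scalings, pseudocounts, filters, an acinar covariate, quality weights, no trend, all 6 columns, a length and GC correction, and leaving out each library. A call said to be lost under some alternatives may have been lost under others too.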

Additional observations from a re-analysis of the deposited data

How the results depend on the processing

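Of the alternatives, log2(CPM + 2), log2(CPM + 0.1), a filter at 1 CPM, quality weights and the length and GC correction kept both counts of members within 1.5 times of the 13 higher and 10 lower. Members higher were 8 with median-ratio scaling, 2 with acinar and insulin genes removed before scaling, 3 with the protein-coding library size, 4 with no filter, 3 with the acinar score as a covariate and 7 with no trend, and ranged from 3 to 13 with 1 library left out. Members lower were 35, 4 and 5 without acinar and insulin genes, with no filter and with the acinar score, 18 with all 6 columns, and 5 to 10 with 1 library left out. Higher members numbered 3 without high-fat replicate 2 or 3, 6 without high-fat replicate 1 and 5 without chow replicate 1, and lower members 5 without high-fat replicate 1 or 2 or chow replicate 1. Without chow replicate 3, 9 of the 13 and 7 of the 10 remained called. All genes higher (2524) became 792 without acinar and insulin genes, 1435 with the protein-coding size, 1080 with no filter, 1148 with the acinar score, 1624 after length and GC correction, 4224 with all 6 columns and 1167 to 2969 with 1 library left out. All genes lower (1487) became 6021, 573, 744 and 2828 without acinar and insulin genes, with no filter, with the acinar score and with all 6 columns, and 682 to 1415 with 1 library left out. Higher genes were 62.9% of all calls with the deposited CPM, 52.9% with median-ratio scaling, 48.3% with the protein-coding size and 11.6% without acinar and insulin genes.

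Removing acinar and insulin genes before scaling turned 23 of the 33 positive tested members negative and 0 the other way, among them Doc2g (-0.08), Rims3 (-0.13), Snap29 (-0.22), Stx18 (-0.20), Stx5a (-0.14), Stxbp4 (-0.38), Stxbp6 (-0.36), Syt14 (-0.16), Sytl1 (-0.22), Cadps (-0.21), Napa (-0.04), Nsf (-0.13), Snap23 (-0.38), Snap47 (-0.09), Stx3 (-0.40), Stxbp2 (-0.02), Stxbp5 (-0.20), Syt11 (-0.29), Syt4 (-0.35), Syt7 (-0.16), Vamp2 (-0.38) and Vamp8 (-0.33), where the median of all genes was -0.32. Near 0, Snap23 turned to -0.04, -0.04 and -0.02, and Vamp2 to -0.01, -0.02 and -0.03, with median-ratio scaling, the protein-coding size and the acinar score. Stx3 turned to -0.04 and -0.04 with these scalings, Stx3 and Vamp2 to -0.05 and -0.04 after length and GC correction, and Sytl4 to 0.04 with the acinar score. With 1 library left out the ranges that crossed 0 were -0.17 to 0.01 for Cadps2, -0.21 to 0.01 for Cplx2, -0.01 to 0.06 for Snap23, -0.04 to 0.09 for Stx3, -0.12 to 0.07 for Sytl4, -0.07 to 0.18 for Vamp2, -0.14 to 0.01 for Vamp3 and -0.11 to 0.29 for Vamp8. The causes were not tested. No paired analysis was made, since the labels link no chow sample to a high-fat sample. With 3 against 2 libraries and 3 reads worth up to 0.16 CPM, members below that level cannot be compared.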
